A study of Homo sapiens with 12 samples.

Results

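The 44 genes described here encode proteins of homologous recombination and of the Fanconi anemia pathway, and were taken by name from a list of members. All 44 were found among the 60605 genes of the deposited table, and all 44 had enough counts to be tested, among 30967 genes tested in all. Expression was measured by RNA sequencing of total RNA from SBC5 cells, a human line established from small cell lung cancer. Of the 4 treatments, 1 µM olaparib followed 2 h later by 4 Gy of gamma radiation is called combination. The solvent DMSO with 4 Gy is called radiation. The others were 1 µM olaparib without radiation (olaparib) and DMSO without radiation (vehicle). Each treatment had 3 libraries, collected after 3 days. All groups are the same line, so every result is from 1 genetic background in culture. The sources do not say whether the libraries of a group came from separate cultures, and p-values then measure only the spread between these libraries.

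Homologous recombination repairs DNA breaks by copying an intact sequence, usually that of the sister chromatid. The broken ends are first resected to single strands, BRCA2 then loads a recombinase onto them, and the joined molecules are finally dissolved or cut apart. The Fanconi anemia pathway repairs crosslinks between the strands: a core complex attaches ubiquitin to FANCD2 and FANCI, which brings in nucleases and hands the resulting break to recombination. Olaparib inhibits and traps the repair enzymes PARP1 and PARP2, and tumours that lack BRCA1 or BRCA2 are known for their sensitivity to it. Gamma radiation breaks DNA strands.

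Each library held between 14.3 and 38.8 times 1e+06 estimated counts. The libraries radiation 3, olaparib 2 and olaparib 3 carried counts on genes that most tissues do not express. The summed level of 404 olfactory receptor genes was 920.2 counts per 1e+06 (CPM) in radiation 3, 1897 CPM in olaparib 2 and 2098 CPM in olaparib 3, against 355 to 501 CPM in the other 9 libraries. These 3 libraries are shown apart, and the tests rest on 3 combination, 2 radiation, 1 olaparib and 3 vehicle libraries. The lone olaparib library is assumed to vary like those of the other groups. Of the markers of small cell lung cancer, YAP1 lay at 84.0 to 124 CPM and SYP at 16.4 to 27.3 CPM in the 9 libraries, whereas INSM1, CHGA, NCAM1, POU2F3 and NEUROD1 reached 3.25 CPM at most. Markers of leukocytes, endothelium and epithelium reached 2.28 CPM at most in these 9 libraries, and the fibroblast markers COL3A1 and LUM stayed below 1 CPM. The other fibroblast markers were DCN, at 2.88 CPM at most, and the collagen gene COL1A1, at 11.7 to 17.3 CPM.

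In unexposed cells the members differed widely in level. Per kilobase of exon, RAD50 was the highest in the vehicle libraries at 24.8 CPM per kb, UBE2T followed at 13.0 and UIMC1 at 12.02 CPM per kb. BRCA2 stood at 6.98 and BRCA1 at 6.06 CPM per kb, ranks 13 and 15 of 44. XRCC3 was the lowest at 0.19 CPM per kb, after FANCF at 0.51 CPM per kb. The core complex members FANCA, FANCC, FANCE, FANCF and FANCG all lay between 0.51 and 1.35 CPM per kb, while FANCL of the same complex stood at 9.60 CPM per kb. FANCM and FANCB lay between, at 1.77 and 2.37 CPM per kb. These values depend on the length used. The exon union was 12809 bases for FANCC and 2412 for FANCL, against longest transcripts of 4592 and 1698 bases. The estimated counts behind a member's value ran from 24 to 51 per library for FANCF and from 27 to 72 for XRCC3, up to 4559 to 9427 for RAD50 in the 9 libraries. These levels describe the vehicle libraries and were not tested between genes.

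The combination is set against vehicle first, because this comparison called the most members. BRCA2, BRCA1, XRCC2 and GEN1 rose and NBN and FANCL fell in combination cells compared with vehicle cells, with log2 changes from 0.66 for BRCA2 to -0.61 for FANCL. The other 38 members did not pass an adjusted p of 0.05 (edgeR quasi-likelihood test, Benjamini-Hochberg adjustment over all genes tested). The 4 members called higher are 9.09% of the 44, against 1.53% of all tested genes. The 2 called lower are 4.55%, against 3.26% of all tested genes. The members are expressed more highly than most genes, with a median of 20.4 CPM against 1.74 CPM for all tested genes. All 6 calls fell among the 34 members of at least 10 CPM. Of all genes at that level, 4.36% were called higher and 11.2% were called lower. Over all 44 members the median log2 change was 0.13, against 0.02 for all tested genes, and 30 members were positive and 14 negative. Without adjustment, 13 members had p under 0.05, 9 of them higher, where 14.4% of all tested genes had such a p. In 14 members all combination libraries lay above all vehicle libraries, where 9.15% of all tested genes did so, and in 5 members all lay below, where 10.4% of all tested genes did so. The split depended on scaling: with library size in place of TMM factors, 16 members were called higher and 0 lower, beside 7.35% of all tested genes called higher, and the median of all genes moved to 0.22. On that scaling 38 members were positive, and RAD51D, RAD52, RAD54L, RAD50, FANCG, FANCI, UBE2T and FAN1, none of them called, turned from negative to positive. With all 12 libraries in the fit, edgeR called 0 members, and 5 had an unadjusted p under 0.05. That fit called only 1 of the 31858 genes it tested, so the loss of calls was not particular to the members. DESeq2 on the 9 libraries called 5 higher and 2 lower. It called 1711 of the 30967 genes in its fit, where edgeR called 475 higher and 1010 lower. Over the 6 comparisons, DESeq2 gave an adjusted p to only 126 of 264 member values. The others could not be called by it.

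**Figure D1:**
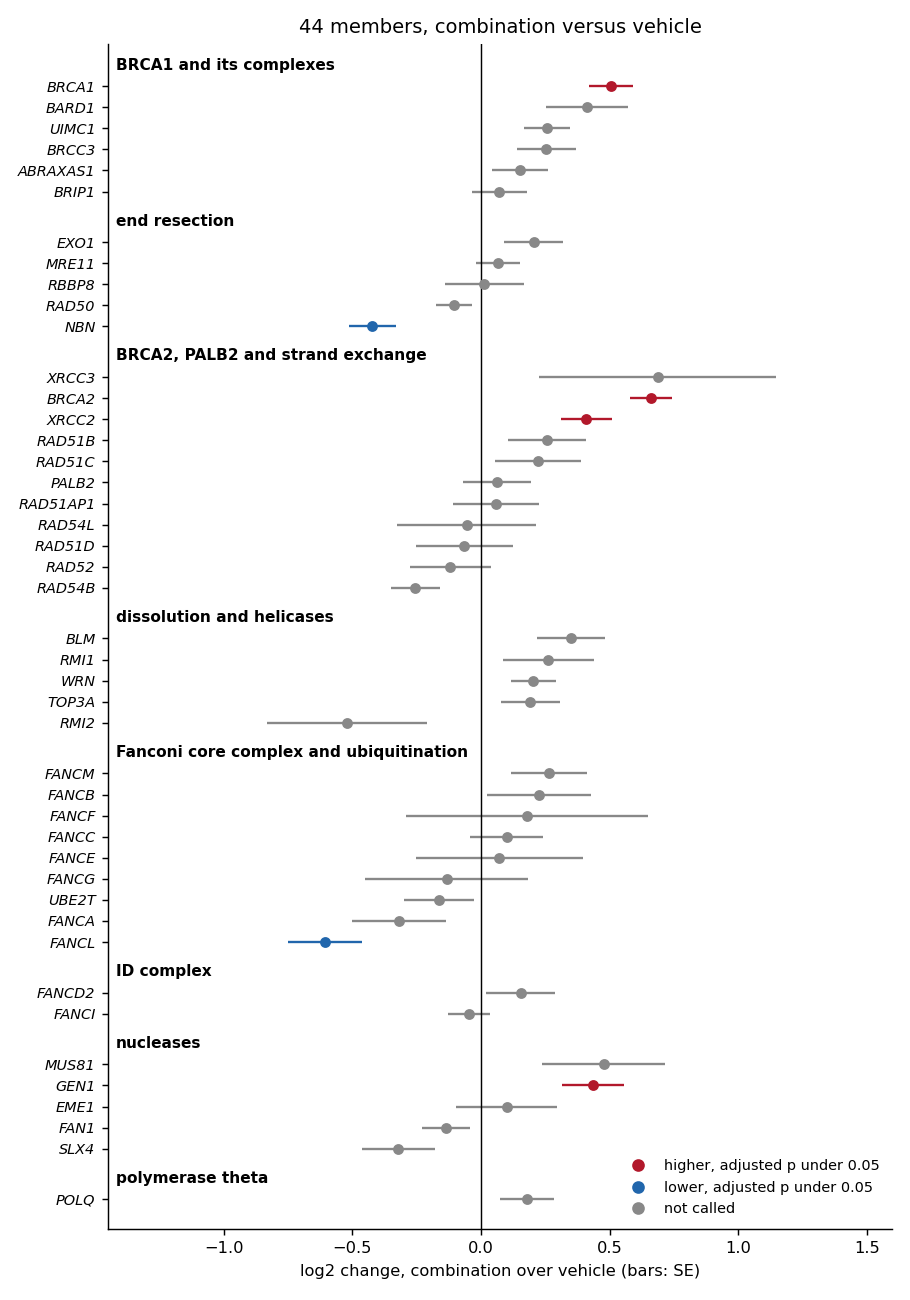
Log2 change of each of the 44 members, combination over vehicle, on the horizontal axis, with genes grouped by role; bars are standard errors from edgeR and colours mark the adjusted p. BRCA2, BRCA1, XRCC2 and GEN1 are coloured as higher, NBN and FANCL as lower, and all 6 members of the BRCA1 group lie right of 0.

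The promoters of the called members were read next, since members that move together can share regulatory letters. RefSeq windows on GRCh38.p14, from 250 bases before to 50 bases after the annotated start, were at hand for 39 of the 44 members. The windows were searched on both strands for letters bound by E2F factors, which drive genes of DNA synthesis (TTCCCGC or TTCGCGC or TTGCCGC or TTGGCGC), for the cell cycle element CHR (TTTGAA or TTCGAA) and for CCAAT; none of these letter forms contains another. E2F letters were present in 21 of 39 member windows, or 53.8%, and in 17.1% of 15841 protein-coding windows of the same length. CHR letters were in 10.3% of member windows and 13.5% of all, and CCAAT in 33.3% of member windows and 36.4% of all. A match describes letters and is not evidence of a bound site. Among the called members with a window shown here, XRCC2 and GEN1 rose and carry E2F letters, FANCL fell and carries them, and BRCA2 rose and has none of the forms in its window. Each line gives the window 5′ to 3′ on the strand of the gene, with E2F letters in capitals on either strand.
BRCA2, chr13:32315258-32315557, plus strand: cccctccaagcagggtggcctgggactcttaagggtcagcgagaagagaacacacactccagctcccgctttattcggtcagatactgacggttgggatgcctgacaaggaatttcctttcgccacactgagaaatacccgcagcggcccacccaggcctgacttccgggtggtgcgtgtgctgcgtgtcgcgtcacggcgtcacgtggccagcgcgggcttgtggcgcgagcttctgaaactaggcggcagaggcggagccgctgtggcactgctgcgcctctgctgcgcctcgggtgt
XRCC2, chr7:152676092-152676391, minus strand: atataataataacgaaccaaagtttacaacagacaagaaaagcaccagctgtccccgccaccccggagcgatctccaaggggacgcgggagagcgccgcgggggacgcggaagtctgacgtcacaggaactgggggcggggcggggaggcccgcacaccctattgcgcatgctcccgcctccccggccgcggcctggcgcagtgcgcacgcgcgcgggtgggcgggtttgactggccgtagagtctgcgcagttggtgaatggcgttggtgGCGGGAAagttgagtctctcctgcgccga
GEN1, chr2:17753619-17753918, plus strand: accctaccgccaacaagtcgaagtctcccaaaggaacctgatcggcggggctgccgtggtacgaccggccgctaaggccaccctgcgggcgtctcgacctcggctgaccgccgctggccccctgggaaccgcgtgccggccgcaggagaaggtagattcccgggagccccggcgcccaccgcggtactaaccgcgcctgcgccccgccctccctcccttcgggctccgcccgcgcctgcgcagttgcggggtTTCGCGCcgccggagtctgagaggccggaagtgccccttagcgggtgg
FANCL, chr2:58241276-58241575, minus strand: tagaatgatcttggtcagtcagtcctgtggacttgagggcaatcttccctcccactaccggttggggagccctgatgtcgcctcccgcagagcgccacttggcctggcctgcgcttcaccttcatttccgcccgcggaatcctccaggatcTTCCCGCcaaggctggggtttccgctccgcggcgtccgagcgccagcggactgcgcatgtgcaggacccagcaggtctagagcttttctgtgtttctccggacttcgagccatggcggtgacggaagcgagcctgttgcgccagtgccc

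The E2F letters began 21 bases after the start in XRCC2, 2 bases after it in GEN1 and 99 bases before it in FANCL. Members with E2F letters had a median log2 change, combination over vehicle, of 0.10 (n = 21), with 2 called higher and 1 lower. Members without them had a median of 0.22 (n = 18), with 2 called higher, BRCA2 and BRCA1, and 0 lower. The RefSeq window of BRCA1 lies at its most distant annotated start, so that its other starts were not searched. The E2F letters therefore stood beside both directions of change, and the difference between the 2 medians was not tested.

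BRCA2 (ENSG00000139618), which carries the recombinase onto resected DNA, showed the smallest p of all members. Its level was 146, 125 and 136 CPM in the combination libraries, 111 and 106 CPM in radiation 1 and 2, 92.4 CPM in olaparib 1, and 89.4, 93.2 and 74.3 CPM in the vehicle libraries. All combination libraries lay above all others, the radiation libraries came next, and the olaparib library lay within the vehicle range. Combination averaged 135 ± 10.4 CPM and vehicle 85.6 ± 9.99 CPM (SD, n = 3 each), a log2 change of 0.66 (SE 0.0818, edgeR adjusted p = 5.30e-09). The call held with each of the 9 libraries left out in turn. The adjusted p over 18 alternatives ran from 5.30e-13 to 1, the highest being that with all 12 libraries.

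XRCC2 (ENSG00000196584), a paralog of the recombinase that helps to assemble its filament, had 55.1, 47.1 and 49.6 CPM in the combination libraries. It had 41.0 and 42.3 CPM in radiation 1 and 2, 38.1 CPM in olaparib 1, and 40.5, 39.2 and 34.5 CPM in the vehicle libraries. The combination libraries were all higher than the other 6. XRCC2 rose by 0.41 on the log2 scale (SE 0.101, edgeR adjusted p = 0.00486). The adjusted p was 0.0743 without combination 1 and 0.0675 without vehicle 3, within a range of 8.54e-06 to 1 over 18 alternatives.

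The other 9 members of strand exchange were not called in this comparison, and 5 of them were positive. PALB2, which bridges BRCA1 and BRCA2, changed by 0.06 (SE 0.132). The paralogs RAD51B, RAD51C and RAD51D had log2 changes of 0.26, 0.22 and -0.07. XRCC3, the least expressed member, had 1.66, 3.23 and 1.995 CPM in the combination libraries and 1.37, 1.23 and 1.66 CPM in the vehicle libraries, which overlapped, and its log2 change of 0.69 had an SE of 0.46. RAD51AP1, which stimulates strand pairing, RAD52, which anneals single strands, and the motor protein RAD54L lay between -0.12 and 0.06.

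BRCA1 (ENSG00000012048), a ubiquitin ligase subunit that steers breaks towards recombination, had 81.2, 81.2 and 74.5 CPM in the combination libraries. It had 65.3 and 61.3 CPM in radiation 1 and 2, 67.3 CPM in olaparib 1, and 54.4, 59.6 and 53.0 CPM in the vehicle libraries. The combination libraries were the highest and the vehicle libraries the lowest, with radiation and olaparib between them and no overlap with either. Combination averaged 79.0 ± 3.85 CPM and vehicle 55.7 ± 3.45 CPM (SD, n = 3 each), a log2 change of 0.50 (SE 0.0868, edgeR adjusted p = 2.00e-05). The call held with each of the 9 libraries left out, and the adjusted p over 18 alternatives ran from 5.57e-09 to 1. Both BRCA1 and FANCD2 have partial pseudogene copies, with which some of their estimated counts could have been shared.

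All 6 members of the BRCA1 complexes had positive changes, with a median log2 of 0.26, and 1, BRCA1, was called. BARD1, the ligase partner of BRCA1, had 16.5, 15.6 and 15.6 CPM in the combination libraries and 12.7, 10.0 and 13.1 CPM in the vehicle libraries. These did not overlap, but the log2 change of 0.41 had an adjusted p of 0.154 in edgeR. UIMC1, which binds ubiquitin chains at breaks, had 71.3, 63.1 and 69.8 CPM in the combination libraries and 56.1, 54.9 and 59.9 CPM in the vehicle libraries, a log2 change of 0.26 (adjusted p = 0.0828 in edgeR and 0.0299 in DESeq2). BRCC3, a deubiquitinase of the same complex, changed by 0.25, ABRAXAS1, its scaffold, by 0.15, and the helicase BRIP1 by 0.07.

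NBN (ENSG00000104320), the subunit of the MRE11 complex that recruits the kinase ATM, was called lower. Its level was 51.3, 43.4 and 48.6 CPM in the combination libraries, 62.8 and 52.7 CPM in radiation 1 and 2, 67.5 CPM in olaparib 1, and 65.6, 61.2 and 65.3 CPM in the vehicle libraries. The combination libraries were the lowest of the 9. NBN fell by 0.42 on the log2 scale (SE 0.0929, edgeR adjusted p = 0.00127), and the call held with each of the 9 libraries left out. It was lost when TMM factors were replaced by library size (adjusted p = 0.128), and in the fit of all 12 libraries with an olfactory receptor covariate (0.0962), within a range of 0.000417 to 1 over 18 alternatives.

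The partners of NBN did not follow it past the threshold. MRE11, the nuclease of the complex, had 79.7, 69.4 and 80.8 CPM in the combination libraries and 72.7, 81.0 and 65.7 CPM in the vehicle libraries, which overlapped, with a log2 change of 0.07. RAD50, the ATPase that bridges the ends, had 222, 231 and 224 CPM in the combination libraries and 243, 256 and 229 CPM in the vehicle libraries, with a log2 change of -0.11 (adjusted p = 0.548). RBBP8, which activates MRE11, changed by 0.01, and EXO1, the exonuclease of long resection, by 0.20.

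FANCL (ENSG00000115392), the ubiquitin ligase of the Fanconi core complex, had 17.5, 15.1 and 13.0 CPM in the combination libraries. It had 23.5 and 19.0 CPM in radiation 1 and 2, 18.5 CPM in olaparib 1, and 20.9, 22.0 and 26.6 CPM in the vehicle libraries. The combination libraries lay below the other 6, and radiation 2 and olaparib 1 also lay below the vehicle libraries. FANCL fell by 0.61 on the log2 scale (SE 0.145, edgeR adjusted p = 0.00355). The adjusted p was 0.0539 without combination 3 and 0.0702 without vehicle 3, within a range of 0.00112 to 1 over 18 alternatives. The call was also lost in edgeR with library size in place of TMM factors (adjusted p = 0.0665). The same held for all 12 libraries with the olfactory receptor covariate (0.0697).

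The 8 other members of the core complex and its ubiquitination step were not called, and 5 were positive. UBE2T, the conjugating enzyme that works with FANCL, had 21.7, 18.8 and 17.2 CPM in the combination libraries and 19.7, 22.5 and 22.3 CPM in the vehicle libraries, which overlapped. FANCA, a core scaffold subunit, had 9.30, 10.5 and 10.3 CPM in the combination libraries and 11.95, 13.3 and 12.3 CPM in the vehicle libraries, with no overlap and a log2 change of -0.32 (adjusted p = 0.453). FANCM, the motor that anchors the complex to DNA, changed by 0.26. Of the 2 substrates, neither was called. FANCD2 had 19.7, 28.1 and 26.7 CPM in the combination libraries, 21.1 and 18.9 CPM in radiation 1 and 2, 23.3 CPM in olaparib 1, and 23.1, 24.7 and 19.1 CPM in the vehicle libraries. Its combination and vehicle libraries overlapped, its log2 change was 0.15 (SE 0.135), and FANCI changed by -0.05.

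GEN1 (ENSG00000178295), a nuclease that cuts Holliday junctions, had 29.3, 34.3 and 35.1 CPM in the combination libraries. It had 28.1 and 25.5 CPM in radiation 1 and 2, 29.7 CPM in olaparib 1, and 19.6, 28.3 and 24.9 CPM in the vehicle libraries. The combination libraries lay above the vehicle libraries, and olaparib 1 lay above combination 1. GEN1 rose by 0.44 on the log2 scale (SE 0.121, edgeR adjusted p = 0.0181). The adjusted p was 0.111 without combination 2, 0.148 without combination 3 and 0.254 without vehicle 1, within a range of 0.000125 to 1 over 18 alternatives.

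MUS81, another junction nuclease, had 6.67, 8.38 and 6.70 CPM in the combination libraries and 4.66, 5.22 and 5.73 CPM in the vehicle libraries, without overlap and with an adjusted p of 0.348. Its partner EME1 changed by 0.10 and the crosslink nuclease FAN1 by -0.14. SLX4, a scaffold that holds MUS81 and EME1, had 16.7, 17.2 and 17.5 CPM in the combination libraries. It had 20.1, 23.1 and 21.1 CPM in the vehicle libraries, with a log2 change of -0.32 (edgeR adjusted p = 0.243). POLQ, which joins ends by an error-prone route when recombination fails, had 41.2, 41.7 and 35.7 CPM in the combination libraries. It had 32.1 and 36.5 CPM in radiation 1 and 2, 43.1 CPM in olaparib 1, and 34.7, 38.0 and 32.1 CPM in the vehicle libraries. Olaparib 1 was the highest of these libraries. The combination and vehicle libraries of POLQ overlapped, with a log2 change of 0.18.

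Of the 5 helicases and dissolution factors, 4 were positive and 0 were called. BLM, the helicase that dissolves paired junctions, had 27.1, 22.5 and 25.9 CPM in the combination libraries, 19.5 and 25.5 CPM in radiation 1 and 2, 21.5 CPM in olaparib 1, and 20.5, 18.6 and 20.1 CPM in the vehicle libraries. Combination and vehicle did not overlap, and the log2 change of 0.35 had an adjusted p of 0.136. Of its partners, TOP3A, a topoisomerase, changed by 0.19, RMI1 by 0.26 and RMI2 by -0.52, the last with an SE of 0.311. WRN, the Werner syndrome helicase, changed by 0.20 (adjusted p = 0.230).

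**Figure D2:**
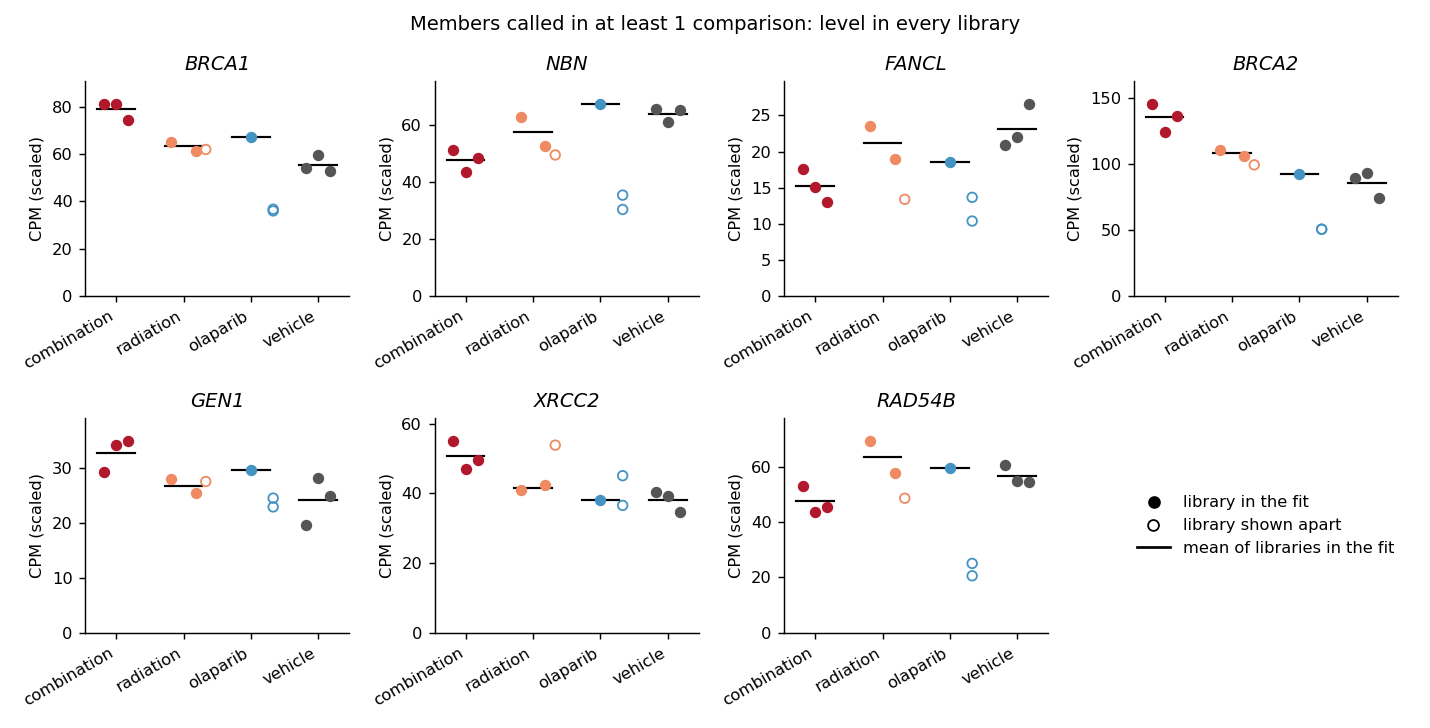
Scaled CPM in every library for the 7 members called in at least 1 comparison, with combination, radiation, olaparib and vehicle from left to right; filled points are the 9 libraries in the fit, open points the 3 shown apart, and lines the means of the filled points. Among the filled points, BRCA2 is highest in the combination, between 125 and 146 CPM, and FANCL lowest there, between 13.0 and 17.5 CPM. Of the open points of FANCL, olaparib 3 is lower still, at 10.4 CPM.

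Radiation alone was set against vehicle with 2 and 3 libraries. BRCA2 rose, and the other 43 members were not called in either direction. For all tested genes 0.42% were called higher and 0.678% lower. BRCA2 averaged 108 ± 3.61 CPM in radiation cells (SD, n = 2) and 85.6 ± 9.99 CPM in vehicle cells (SD, n = 3). All radiation libraries lay above all vehicle libraries, and the log2 change was 0.34 (SE 0.0904, edgeR adjusted p = 0.0368). This call was narrow. It held in 3 of the 9 fits that left out a library and was lost without combination 3, radiation 1, radiation 2, olaparib 1, vehicle 1 or vehicle 3, with adjusted p of 0.0540, 0.318, 0.0832, 0.0699, 0.0511 and 0.305. Over 18 alternatives the adjusted p ran from 0.00112 to 0.971, and the log2 change from 0.25 to 0.45. BRCA1 changed by 0.19 (edgeR adjusted p = 0.541), ABRAXAS1 by 0.26 (0.435), UIMC1 by 0.23 (0.383) and BARD1 by 0.38 (0.46). BRIP1 changed by 0.08 and BRCC3 by -0.01. By role, 5 of the 6 members of the BRCA1 complexes were positive with radiation, with a median log2 of 0.21, as were 4 of 5 of end resection (median 0.12) and 6 of 9 of the core complex and ubiquitination (median 0.05). FANCD2 and FANCI were both negative, at -0.16 and -0.14. These counts describe the groups, and the median of all tested genes was -0.03.

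Olaparib alone rests on 1 library against 3 of vehicle. edgeR called 0 members, beside 0.00969% of all tested genes higher and 0.0581% lower. At an unadjusted p under 0.05 there were 4 members: BRCA1, POLQ and FANCM higher and TOP3A lower, where 3.34% of all tested genes had such a p. DESeq2 made no call either among the members to which it gave an adjusted p. BRCA1 had 67.3 CPM in olaparib 1, against 54.4 to 59.6 CPM in vehicle, a log2 change of 0.27 (SE 0.120, adjusted p = 1). FANCM had 20.1 CPM, against 14.03 to 16.3 CPM, and TOP3A had 21.9 CPM, against 26.7 to 28.7 CPM. With 1 library, the interval of a change is wide: for BRCA2 the log2 change was 0.11 with an SE of 0.114.

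The combination was then set against each single treatment, which shows what the second agent added. These comparisons share the combination libraries with the one above and are no separate support for it. Against radiation, RAD54B, a motor protein that remodels joint molecules, fell, and 0 members rose; 0.142% of all tested genes were called higher and 0.426% lower. RAD54B (ENSG00000197275) had 53.1, 43.5 and 45.6 CPM in the combination libraries and 69.3 and 57.6 CPM in radiation 1 and 2. It had 59.5 CPM in olaparib 1 and 60.7, 54.7 and 54.5 CPM in the vehicle libraries. The combination libraries were the lowest of the 9. The log2 change against radiation was -0.42 (SE 0.106, edgeR adjusted p = 0.0333), and against vehicle -0.26 (adjusted p = 0.123). The call against radiation was lost without combination 2, combination 3, radiation 1, olaparib 1 or vehicle 2, with adjusted p of 0.140, 0.108, 0.707, 0.0726 and 0.0520, within a range of 0.00566 to 1 over 18 alternatives.

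BRCA2 and BRCA1 were higher in each combination library than in each radiation library without passing the threshold. BRCA2 had a log2 change of 0.32 (SE 0.0916, edgeR adjusted p = 0.0802) and BRCA1 one of 0.32 (SE 0.0974, adjusted p = 0.120). DESeq2 called both, with adjusted p of 0.0367 and 0.0281. It called more genes in this comparison, 418 of 30967, where edgeR called 44 higher and 132 lower. All 5 members of end resection were negative in this comparison, from -0.27 for NBN to -0.01 for RBBP8, with 0 called in edgeR, but MRE11, RBBP8 and EXO1 turned positive with library size in place of TMM factors. RAD50 had 222, 231 and 224 CPM in the combination libraries and 268 and 259 CPM in radiation 1 and 2, a log2 change of -0.22 (adjusted p = 0.196 in edgeR and 0.0147 in DESeq2).

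Against the lone olaparib library, BRCA2 rose by 0.55 (SE 0.118, edgeR adjusted p = 0.00200) and NBN fell by 0.50 (SE 0.127, adjusted p = 0.0155). Of all tested genes 0.417% were called higher and 1.54% lower. With all 12 libraries the BRCA2 change was 1.08 and was not called (adjusted p = 0.128), within a range of 0.000170 to 0.128 over 17 alternatives. NBN stood at 43.4 to 51.3 CPM in the combination libraries and at 67.5 CPM in olaparib 1. The NBN call was lost without combination 2 (adjusted p = 0.0735), and its log2 change was 0.11 (adjusted p = 0.786) with all 12 libraries, where the olaparib libraries shown apart had 35.5 and 30.4 CPM. TOP3A had 34.2, 32.5 and 29.2 CPM in the combination libraries and 21.9 CPM in olaparib 1, with a log2 change of 0.54 (adjusted p = 0.0710 in edgeR and 0.0213 in DESeq2).

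The interaction asks whether the change with both agents differed from the sum of the changes with each. edgeR called 0 members, beside 0.0969% of all tested genes higher and 0.103% lower. At an unadjusted p under 0.05 there were 5 members, where 7.18% of all tested genes had such a p. DESeq2 made no call here among the members to which it gave an adjusted p. RAD54B had the smallest adjusted p, 0.356, with an interaction of -0.49 (SE 0.168), then NBN with -0.35 (SE 0.164). BRCA2 had an interaction of 0.21 (SE 0.147) and BRCA1 of 0.05 (SE 0.155). These errors include that of the lone olaparib library, so an interaction of the size of the SE was not detectable here.

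**Figure D3:**
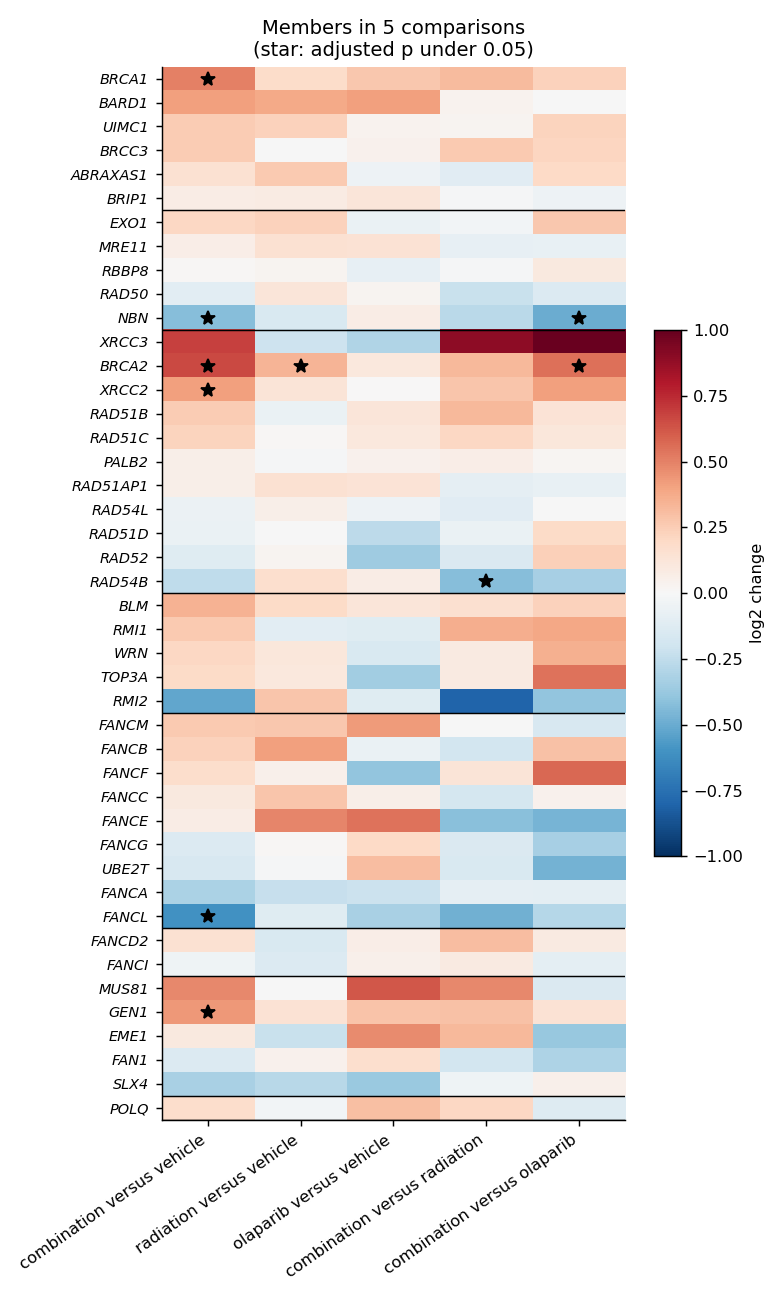
Log2 change of each member in 5 comparisons, with comparisons along the horizontal axis, genes grouped by role down the page, red for higher and blue for lower in the first-named group; stars mark an adjusted p under 0.05. BRCA2 has 3 stars, NBN has 2, and the olaparib versus vehicle column has 0.

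Genes outside the 44 give the setting of these changes. Of 44 other genes of the pathway, 42 were tested, 0 rose and 1 fell in combination against vehicle, with a median log2 change of -0.03. The gene that fell was SEM1, a small acidic protein that binds BRCA2 and is also a proteasome subunit, at 75.4 ± 6.06 CPM in the combination and 105 ± 2.18 CPM in vehicle (SD, n = 3 each), a log2 change of -0.48 (edgeR adjusted p = 1.18e-05). Of 43 genes of S phase, CCNE2, which encodes cyclin E2, rose and RRM2 and TYMS, enzymes of nucleotide synthesis, fell, with a list median of 0.04. Of 40 genes of G2 and mitosis, ASPM and CENPF rose and CCNA2 fell, with a median of -0.04. CENPF, a kinetochore protein, stood at 670.0 ± 10.3 CPM in the combination and 476 ± 13.5 CPM in vehicle (SD, n = 3 each). In bulk RNA, a change in the share of cells in a phase and a change per cell cannot be told apart.

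The change also went with transcript length. Across 7590 protein-coding genes of at least 10 CPM, the log2 change of combination over vehicle had a rank correlation of 0.17 with the length of the longest annotated transcript, and across the 44 members it was 0.23. These are descriptions across genes, which share libraries and are not replicates. The median log2 change of those genes was -0.22 for the 397 under 1500 bases and -0.01 for the 1410 over 7000 bases. BRCA2, BRCA1 and GEN1 are among the 8 members over 7000 bases, whose median was 0.22. FANCL lies in the range from 1500 to 3000 bases, where the median was -0.09 for 1681 genes and 0.09 for 12 members. XRCC2, called higher, and NBN, called lower, have like lengths of 4728 and 4907 bases. In their range, from 3000 to 5000 bases, the median was -0.05 for 2557 genes and 0.13 for 16 members. The part of length in the changes of these members was not tested.

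**Figure D4:**
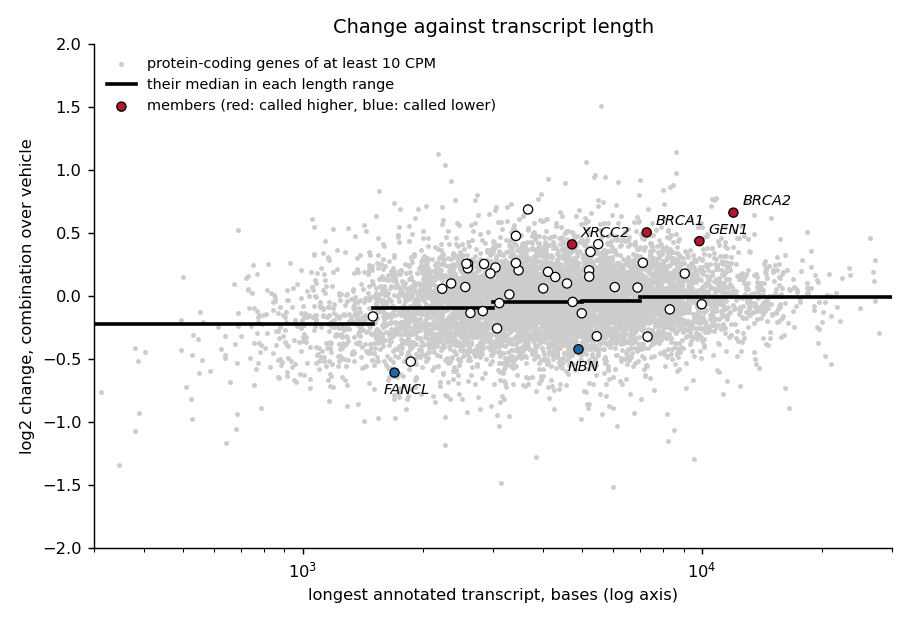
Log2 change of combination over vehicle against the longest annotated transcript in bases (log axis); grey points are 7590 protein-coding genes, black lines their median in each length range, and ringed points the 44 members. The medians run from -0.22 to -0.01 with length, and BRCA2, at 0.66, lies above the median of its range.

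The 3 libraries shown apart changed what the members looked like according to scaling. On the scaled CPM, 8 of 44 members in radiation 3, 28 in olaparib 2 and 30 in olaparib 3 lay below all 9 other libraries. Of all genes of at least 10 CPM, 43.6% did so in radiation 3, 79.4% in olaparib 2 and 80.7% in olaparib 3. With library size in place of the TMM factors, 2 members in radiation 3 and 5 in each olaparib library lay below the 9, where 11.9% of genes of at least 10 CPM did so in radiation 3, 35.8% in olaparib 2 and 36.8% in olaparib 3. BRCA2 had 99.4 CPM in radiation 3, 50.6 CPM in olaparib 2 and 50.7 CPM in olaparib 3. BRCA1 had 62.0 CPM in radiation 3, 36.0 CPM in olaparib 2 and 36.7 CPM in olaparib 3. Both genes thus lay below the vehicle range in these olaparib libraries and above it in radiation 3 on the scaled CPM. XRCC2 had 53.8 CPM in radiation 3, 45.1 CPM in olaparib 2 and 36.5 CPM in olaparib 3, and GEN1 had 27.6, 23.0 and 24.6 CPM in these 3 libraries. FANCL had 13.4 CPM in radiation 3, 13.7 CPM in olaparib 2 and 10.4 CPM in olaparib 3. RAD54B had 48.6 CPM in radiation 3, 25.0 CPM in olaparib 2 and 20.6 CPM in olaparib 3, and NBN had 49.6, 35.5 and 30.4 CPM. FANCL, RAD54B and NBN were thus all below the vehicle libraries there. BRIP1 and RAD51D went the other way, above all 9 libraries in each of the 3 on both scalings. These are 4.55% of the members, where 20.6% of all tested genes and 3.89% of those of at least 10 CPM did so. BRIP1 had 41.2 CPM in radiation 3, 59.2 CPM in olaparib 2 and 55.2 CPM in olaparib 3, against 32.1 to 36.0 CPM in the 9. RAD51D had 15.6, 13.8 and 15.8 CPM in these libraries, against 8.62 to 11.6 CPM in the 9. In these 3 libraries the olfactory receptor genes were also higher, and their part in the levels of BRIP1 and RAD51D was not tested.

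**Figure D5:**
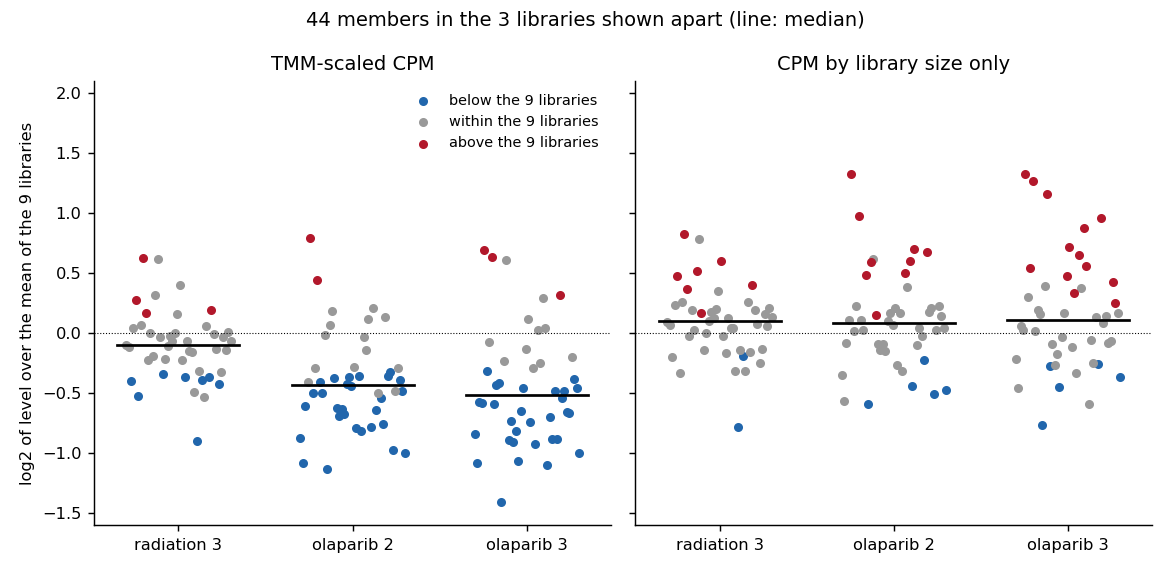
Log2 of each member's level in radiation 3, olaparib 2 and olaparib 3 over its mean in the other 9 libraries, with scaled CPM on the left and CPM by library size on the right; colours show whether a member lies below, within or above the 9 libraries, and lines are medians. On the left 28 and 30 members are below in the olaparib libraries, on the right 5 and 5.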

How the data were processed

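Stranded total RNA of 12 SBC5 libraries had been assigned to transcripts with kallisto 0.46.1, and DESeq2 is named as well, per the submitters' processing notes. No genome build or transcriptome release is named in the labels. The authors deposited estimated counts (expected counts) per gene, 60649 rows, of which 68.9% of values were whole to within 1e-06. Here 44 rows for pseudoautosomal copies on Y were added to X, and values were rounded to whole counts. Totals ran from 14.3 to 38.8, in units of 1e+06 counts, and counting error is largest for the lowest genes.

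The members, gene lists and tests were chosen with earlier results of these data known. Libraries whose summed olfactory receptor CPM exceeded 1.5 times the median of the 12 were shown apart, scaled on the same basis. The other 9 were fitted in edgeR 4.0.16 (R 4.3.3) with TMM factors, the default count filter and a separate mean for each group. Quasi-likelihood F-tests (robust) were adjusted by Benjamini-Hochberg over 30967 genes, and an adjusted p under 0.05 was called. The procedure was tested on simulated counts with equal dispersion for all genes and no background difference between libraries. These data differ in both respects, so that test does not bear on the calls of single members. Each SE is the log2 change over the square root of F. All 44 members could be named. Values in the 9 fitted libraries are given for members called in a comparison, for BRCA1 and BRCA2, and for the smallest p of each role group in combination against vehicle; other members shown by library were chosen after their values were seen. Levels per kb use the union of exons in GENCODE 29.

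Alternatives were all 12 libraries, all 12 with an olfactory receptor covariate, library size only, DESeq2's size factors, no filter, DESeq2 1.42.0, a minimum of 1 CPM in 3 libraries, the replicate number as a block, the compared groups alone, and each library left out. Of the other pathway genes, PARI and FIRRM were not found in the name table. Of the cell type markers, 1 is not reported here.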

Additional observations from a re-analysis of the deposited data

Results flagged for a closer look

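In the 3 libraries shown apart, 2 members lay above every one of the other 9 libraries. The lowest level of BRIP1 there was 41.2 CPM and that of RAD51D 13.8 CPM, with 36.0 CPM and 11.6 CPM as the highest of the 9. The 2 members are 4.55% of the 44, where 3.89% of genes of at least 10 CPM and 20.6% of all tested genes lay above the 9 in the same way. Only 34 of the 44 members reach 10 CPM on average, so neither share is matched to them in level. The count was not tested.

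For 7 members, the change with one agent took opposite signs with and without the other in every library compared. Olaparib went one way with radiation and the other way without it for XRCC3 (interaction 1.2 on the log2 scale), NBN (-0.35), FANCE (-0.96) and FAN1 (-0.35). Radiation did so with and without olaparib for RAD50 (-0.25), FANCM (-0.43) and SLX4 (0.33). The interaction was tested in edgeR for each, and the smallest adjusted p of any member was 0.356, so none of these differences passed the threshold. The 7 members are 15.9% of the 44, where 13.7% of genes of at least 10 CPM and 8.61% of all tested genes showed such a pattern. The members' share is near the first of these. XRCC3 and FANCE lie under 10 CPM, however, so the shares are not matched in level. Each of the 7 patterns rests on the lone olaparib library.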

How the results depend on the processing

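Over 4438 member values under alternatives, 4368 kept their side of the threshold, 41 lost a call, 28 gained one, and 1 called value reversed: NBN in combination against olaparib, at 0.11 with all 12 libraries. Of the 4368, 302 changed sign without being called. Counting NBN, signs turned in 72 of 264 values with all 12 libraries, 37 of 264 with library size only and 28 of 264 with the covariate. For combination against vehicle, the higher calls were 0 with all 12 libraries and 16 with library size only; the lower calls were 0 with all 12, with the covariate and with library size only. For radiation against vehicle, the higher calls were 0 with all 12, the replicate block or the compared groups alone, and 2 with library size only. For combination against radiation, the higher calls were 2 with library size only or DESeq2 and 1 with the block; the lower calls were 0 with all 12, the covariate, library size only, the block or the compared groups alone, and 2 with DESeq2. For combination against olaparib, the higher calls were 0 with all 12, 2 with the covariate or DESeq2 and 4 with library size only; the lower calls were 0 with all 12, the covariate, library size only or the block. With all 12 libraries, 1 of 31858 genes was called for combination against vehicle and 3 for combination against olaparib. For radiation against vehicle and for combination against radiation it was 0. DESeq2 called 1711 of 30967 genes for combination against vehicle and 418 for combination against radiation. It gave an adjusted p to 126 of 264 member values. The others could not be called and are not among the 4438. The cause of these shifts between settings was not tested.

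With each library left out, the higher calls ran from 3 to 4 and the lower from 1 to 3 for combination against vehicle. The higher calls ran from 0 to 1 for radiation against vehicle, the lower from 0 to 1 for combination against radiation, and for combination against olaparib the higher stayed at 1 and the lower ran from 0 to 1. Olaparib 1 could not be left out of its own comparisons, and the interaction uses all groups, so it has no fit of the compared groups alone.

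Deviations of same-numbered libraries correlated at -0.0647 to 0.0135 (7 pairs) and of others at -0.0572 to 0.0647 (14 pairs). The fitted radiation libraries gave mirror-image deviations, so each of their correlations recurred with the opposite sign, as with -0.0647 and 0.0647. These pairs are thus not separate values, and whether equal replicate numbers mark paired libraries could not be decided. With the replicate block, BRCA2 in radiation against vehicle (adjusted p = 0.130), RAD54B in combination against radiation (0.0697) and NBN in combination against olaparib (0.155) lost their calls, BRCA2 in combination against radiation gained one (0.0449), and no other call of a member changed. Depth limits the members under about 10 CPM most, and the single olaparib library limits every comparison with olaparib.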
